A study of Mus musculus with 7 samples.

Results

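The single-cell atlas of healthy mouse pancreas held a cluster of cells that the authors named activated pancreatic stellate cells. Its members were taken from the deposited annotation of the WT cells, as the cells that carried this label. They numbered 275 of 10653 WT cells and of 58473 cells in the whole series. WT 1 held 114 of these cells among 4327, a share of 2.63% (95% exact binomial interval 2.18 to 3.16%), and WT 2 held 161 among 6326, a share of 2.55% (2.17 to 2.96%). The intervals overlapped and cover counting error only. The cells of reference were the other 3370 WT cells with a stellate label, 2739 in Quiescent Pancreatic Stellate 1 and 631 in Quiescent Pancreatic Stellate 2. Of all stellate-labelled cells the cluster made up 10.0% in WT 1 (8.33 to 11.9%) and 6.42% in WT 2 (5.49 to 7.45%).

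The series comprised 7 mice of the C57BL/6 background, aged 2 months, with 1 library of dissociated pancreas per mouse. The 2 WT mice drank water with doxycycline at 1 mg/ml during 7 days. The 3 i4F mice received the same doxycycline and carry, in heterozygosity, an inducible cassette of the reprogramming factors Oct4, Sox2, Klf4 and Myc in the Pparg locus with the rtTA transactivator in the Rosa26 locus, so that any cell reached by the drug may express the factors. The 2 caerulein mice were wild type and were injected with the cholecystokinin analogue caerulein (100 µg/kg), 7 times a day on 2 days, a treatment that causes acute pancreatitis. The labels list no doxycycline for them. In each comparison with WT, caerulein and the lack of doxycycline therefore cannot be told apart. Each condition had been clustered and named on its own, and the names were given by hand.

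Pancreatic stellate cells are fibroblast-related cells of the space around acini, ducts and vessels. In the resting state they store retinoids and express genes such as Lrat, and on injury they are known to acquire alpha smooth muscle actin (Acta2) and to secrete fibrillar collagen (Col1a1) and matrix regulators such as Timp1. Acta2 is also made by mural cells, the pericytes and smooth muscle cells that wrap vessels, in which Rgs5, Notch3, Kcnj8 and Abcc9 mark pericytes and Myh11, Cnn1 and Actg2 mark contractile smooth muscle. Both kinds of cell express Pdgfrb, the receptor for platelet-derived growth factor B.

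Of the 4 genes proposed as markers of the cluster, 3 were high in it and the collagen gene was not. Levels are given here in CPM, the unique molecular identifiers (UMIs, counted transcripts) of a gene in every 1000000 UMIs, summed over the cells of a class within a library. Rgs5, a regulator of G-protein signalling (chr1:169655501-169695813, GRCm38), stood at 4792 CPM in WT 1 and 3620 in WT 2, against 2.02 and 3.45 in the other stellate-labelled cells. Acta2 (chr19:34241090-34255590) stood at 20115 and 16761 against 58.4 and 28.9. Pdgfrb stood at 329 and 347 against 86.9 and 66.5. For these 3 genes every value of the cluster lay above every value of the reference cells. Col1a1, which encodes the alpha 1 chain of collagen I (chr11:94936224-94953042), ran the other way, at 127 and 62.1 in the cluster against 1296 and 1282, which is 10.2- and 20.6-fold lower. Among all 15 WT clusters this cluster had rank 1 for Rgs5, Acta2 and Pdgfrb and rank 5 for Col1a1. The next cluster for Rgs5 was Endothelial 1 with a mean of 180 CPM, and for Acta2 the mesothelium with 373.

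Single cells gave the same picture after each cell was thinned to 1000 UMIs, which left out 23 shallower member cells in WT 1 and 29 in WT 2. An Rgs5 transcript was found in 75.8% of members in WT 1 and 68.9% in WT 2, against 1.79% and 1.92% of ductal cells, a cell type that should lack the gene. In thinned endothelial cells it was found in 2.12% and 5.93%. The shares before thinning were 73.7% and 75.8% in members at median depths of 2862 and 2223 UMIs, and 10.9% and 8.37% in ductal cells at 5396 and 4624 UMIs. Acta2 was found in 74.7% and 71.2% of thinned members against 0.149% and 0.874% of ductal cells, and before thinning in 78.9% and 64.0% of members. Pdgfrb was less separated, in 40.7% and 37.9% of thinned members against 8.59% and 6.97% of the other stellate-labelled cells. Before thinning its shares were 55.3% and 52.8% against 31.4% and 20.8%. Col1a1 was found in 12.1% (95% exact interval 6.19 to 20.6%) and 4.55% (1.69 to 9.63%) of thinned members, against 63.2% and 53.1% of the other stellate-labelled cells and 1.79% and 1.57% of ductal cells. The interval of the WT 2 share overlapped with that of ductal cells (0.722 to 2.97%), and that of the WT 1 share did not (0.927 to 3.10%). Unthinned, Col1a1 was detected in 23.7% and 8.70% of members and in 90.6% and 82.9% of the reference cells.

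**Figure D1:**
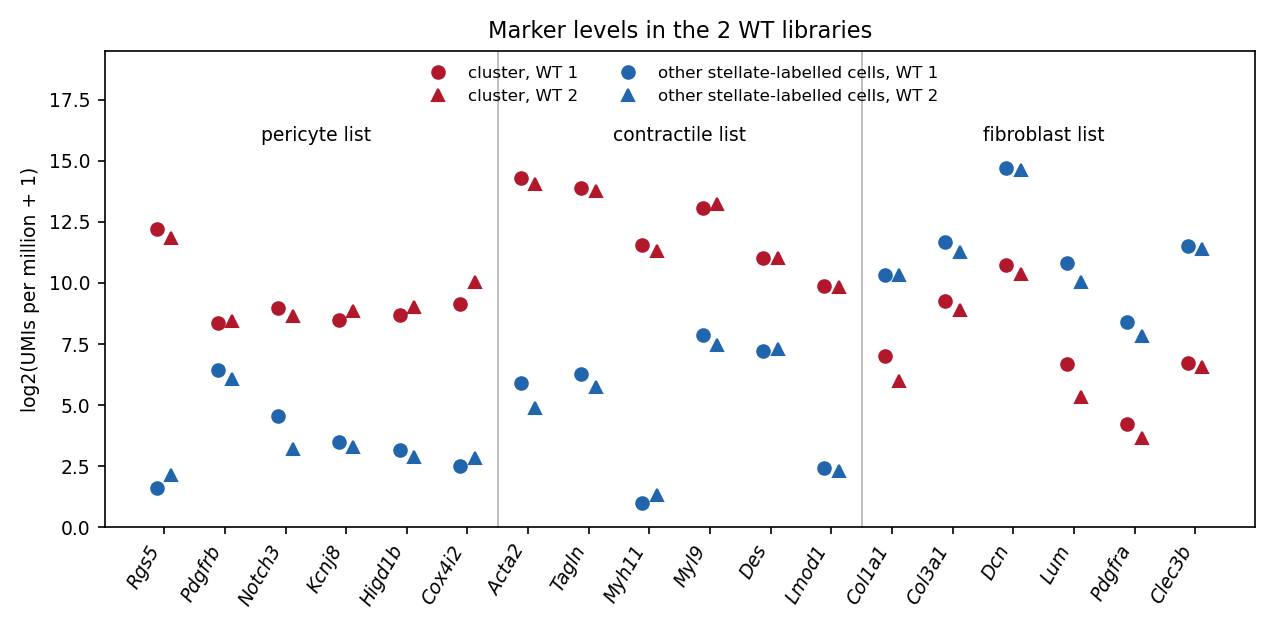
The vertical axis gives log2(CPM + 1) for 18 genes of the pericyte, contractile and fibroblast lists, with 1 point for each class in each WT library (circles WT 1, triangles WT 2; red the cluster, blue the other stellate-labelled cells). The red points lie above the blue ones for all 12 pericyte and contractile genes shown and below them for all 6 fibroblast genes.

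The clustering used the expression of these same cells, so the comparison of the cluster with the other stellate-labelled cells is a description and carries no test. A gene was counted as higher or lower when it differed at least 2-fold in the same direction in both libraries, among 6779 genes with at least 20 CPM in a class and at least 10 UMIs in all. By this rule 810 genes (11.9%) were higher in the cluster and 787 (11.6%) were lower, and the median over all genes was a log2 ratio of 0.039. These shares are the background for each list below. The lists were chosen with earlier results of these data known, so their counts are a description and no independent support. Where a class had no UMI in a library, the ratio was taken against a floor of 3 UMIs per library and is a lower bound. The cluster was shallower than its reference, with a median of 2862 and 2223 UMIs per cell against 4781 and 3656, and its mitochondrial share was higher, with a median of 2.79% and 1.95% against 1.66% and 0.898%. The part of depth and RNA quality in the ratios was not tested. Among cells with at least 500 genes every higher or lower gene of the lists kept its direction.

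Pericyte genes were higher in the cluster. Of the 18 genes of the list 17 were tested, and of these 15 were higher and none was lower, with a median log2 ratio of 4.35. Kcnj8 and Abcc9, the pore and the sulfonylurea receptor subunit of the vascular ATP-sensitive potassium channel, stood at 354 and 455 and at 196 and 198 CPM, against 10.3 and 8.86 and against 11.7 and 7.94. Their values in the 2 libraries were each far above the reference. Higd1b, a mitochondrial protein gene, stood at 410 and 517 against 7.88 and 6.33. Cox4i2, a subunit of cytochrome c oxidase, stood at 555 and 1056 against 4.65 and 6.10, which is 119- and 173-fold higher. The proteoglycan gene Cspg4 (NG2), which is widely used to label mural cells, stood at 176 and 136 against 17.0 and 12.0. Mcam (CD146), an adhesion molecule, stood at 283 and 129 against 1.62 and 0.690, and in Endothelial 1 cells it stood at 128 and 60.4. Anpep and Steap4 were neither higher nor lower, with Steap4 at 176 and 225 against 214 and 197.

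All 20 tested genes of contractile smooth muscle were higher, with a median log2 ratio of 6.35. Myh11, the smooth muscle myosin heavy chain (chr16:14194535-14291372), stood at 2991 and 2502 CPM against 1.01 and 1.50. Tagln, an actin-binding protein (chr9:45929619-45936058), stood at 14927 and 13751 against 75.8 and 53.1, which is 197- and 259-fold higher. In both libraries the 2 genes were thus separated from the reference by more than the libraries differed. Myl9, the regulatory myosin light chain, stood at 8492 and 9644 against 234 and 178, and the intermediate filament gene Des at 2064 and 2051 against 147 and 157. Pln, the inhibitor of the sarcoplasmic reticulum calcium pump, was carried by 104 and 161 UMIs of the cluster and by none of the reference cells, so that it was at least 437- and 1073-fold higher. Nrip2, which binds nuclear receptors, likewise gave 117 and 181 UMIs in the cluster and none in the reference cells, and was at least 491- and 1206-fold higher. Casq2, which stores calcium in the sarcoplasmic reticulum, gave 77 and 86 UMIs in the cluster and 1 UMI in the reference cells of each library. Gja4, the gap junction protein connexin 37 of the vessel wall, gave 201 and 263 UMIs against 2 and 10. Pcp4l1, Sncg, Map3k7cl and Actg2 completed the 10 genes with the largest ratio in the weaker library. By mean level this cluster had rank 1 of the 15 WT clusters for each contractile gene, but some were not confined to it. Pcp4l1 had a mean of 716 CPM against 685 in the cluster named Lymph nodes, and Crip1 3916 against 3116 in the mesothelium. In WT 1 Pcp4l1 stood at 880 in Lymph nodes against 660 here, and Sncg at 446 in Endothelial 2 against 400 here.

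Contractile genes are controlled in smooth muscle by serum response factor and its partner myocardin, which act through the CArG box. The box was searched, in the form known as CC, 6 bases of A or T, GG, in the 300 bases around each transcript start (250 before and 50 after) in the RefSeq promoter table of GRCm38.p6; the form reads alike on both strands. Of the 810 higher genes 598 had a window, and 23 of these (3.85%) held a box, against 1.95% of the lower genes with a window (11 of 563), 1.92% of the tested genes with a window (101 of 5268) and 1.81% of all 27025 windows. Of the contractile list 1 of 16 windows held a box, of the pericyte list 0 of 12. A match is a description of the letters, and the absence of one says nothing about the factor. The windows of the 5 box-bearing higher genes with the highest levels in the cluster are shown, with the box in capitals, so that the sequences behind the count can be read. They belong to Myl9 (chr2:156775214-156775513, plus strand, box starting 161 bases before the start), Myl6 (chr10:128492960-128493259, minus strand, 50 bases), Filip1l (chr16:57548992-57549291, plus strand, 62 bases), Cnn2 (chr10:79988350-79988649, plus strand, 56 bases) and Lmcd1 (chr6:112273508-112273807, plus strand, 215 bases).
Myl9: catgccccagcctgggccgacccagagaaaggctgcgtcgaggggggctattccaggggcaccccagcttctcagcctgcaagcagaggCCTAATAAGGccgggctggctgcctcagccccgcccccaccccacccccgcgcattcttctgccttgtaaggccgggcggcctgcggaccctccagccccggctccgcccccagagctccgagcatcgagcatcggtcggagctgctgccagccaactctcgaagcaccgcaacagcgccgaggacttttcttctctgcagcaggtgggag
Myl6: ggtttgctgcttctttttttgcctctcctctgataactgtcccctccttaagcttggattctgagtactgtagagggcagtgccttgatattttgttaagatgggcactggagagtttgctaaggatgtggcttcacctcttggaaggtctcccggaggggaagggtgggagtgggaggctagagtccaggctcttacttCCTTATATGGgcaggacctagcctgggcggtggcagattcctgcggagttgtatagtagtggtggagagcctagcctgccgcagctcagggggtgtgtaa
Filip1l: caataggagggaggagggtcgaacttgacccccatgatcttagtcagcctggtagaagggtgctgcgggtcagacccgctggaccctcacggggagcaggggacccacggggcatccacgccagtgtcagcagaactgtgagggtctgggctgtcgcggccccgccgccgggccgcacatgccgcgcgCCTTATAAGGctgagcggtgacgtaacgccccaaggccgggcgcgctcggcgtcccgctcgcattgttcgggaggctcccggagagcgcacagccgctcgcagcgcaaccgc
Cnn2: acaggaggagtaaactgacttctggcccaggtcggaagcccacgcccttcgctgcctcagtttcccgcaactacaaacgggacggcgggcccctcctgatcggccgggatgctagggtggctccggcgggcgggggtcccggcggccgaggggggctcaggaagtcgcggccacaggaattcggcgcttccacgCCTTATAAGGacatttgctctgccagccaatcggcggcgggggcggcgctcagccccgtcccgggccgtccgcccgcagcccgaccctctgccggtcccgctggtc
Lmcd1: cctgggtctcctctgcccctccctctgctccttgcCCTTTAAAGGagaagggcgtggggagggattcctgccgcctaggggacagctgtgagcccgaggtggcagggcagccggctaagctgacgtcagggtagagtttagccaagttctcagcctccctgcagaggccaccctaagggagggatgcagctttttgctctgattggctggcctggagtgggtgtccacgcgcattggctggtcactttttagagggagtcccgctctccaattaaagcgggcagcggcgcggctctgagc

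The direction of these genes was fixed by their choice among the higher genes, and their levels are given as a description. Myl6, the essential myosin light chain, stood at 6273 and 6775 CPM in the cluster against 1023 and 1109 in the reference cells. Filip1l stood at 334 and 538 against 54.4 and 51.8, and Cnn2, a calponin, at 296 and 308 against 72.0 and 81.1. Lmcd1, a LIM-domain protein of muscle, stood at 403 and 193 against 4.65 and 4.26.

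Fibroblast genes and the matrix programme of stellate activation were lower in the cluster. All 20 fibroblast genes were lower, with a median log2 ratio of −3.94. Decorin (Dcn) stood at 1725 and 1338 CPM against 26925 and 25189, and Clec3b (tetranectin) at 104 and 94.3 against 2917 and 2712, which is 27.9- and 28.8-fold lower. Pdgfra, the fibroblast PDGF receptor, stood at 17.8 and 11.5 against 342 and 226, and Lum at 102 and 39.1 against 1813 and 1046. The values of the 2 libraries did not overlap with those of the reference for any of these genes. Of 20 fibrillar collagen and matrix genes 17 were lower and none was higher (median −3.03), and Col3a1 stood at 617 and 481 against 3231 and 2456. Eln, Sparc and Postn were neither, with Sparc at 4538 and 4588 against 7798 and 7896.

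On the list of stellate activation 3 of 18 tested genes were higher and 10 were lower, with a median log2 ratio of −1.60. The 3 higher genes were Acta2, Pdgfrb and Ctgf, a matrix-associated growth regulator at 76.4 and 347 against 33.2 and 62.1. Of these Acta2 and Pdgfrb also stand on the contractile or pericyte list. Among the lower genes Timp1, the tissue inhibitor of metalloproteinases, stood at 17.8 and 6.90 against 200 and 113, the protease gene Mmp2 at 30.6 and 18.4 against 554 and 430, and Fap, a protease of activated fibroblasts, rested on 4 and 9 UMIs in the cluster. The cluster therefore differed from its name on the measured genes: it was high in Acta2 and low in the collagens and remodelling genes of activated stellate cells. It is called the Rgs5-Myh11 cluster below, after leading genes of the pericyte and contractile lists.

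Genes of the resting stellate cell did not mark the Rgs5-Myh11 cluster either. Lrat, which esterifies retinol, and Gfap had no UMI in it, which allows up to 3 UMIs in each library, or 7.64 and 6.90 CPM. In the reference cells Lrat was itself at only 2.43 and 0.575 CPM. Of the 10 tested genes of the list 4 were higher (Des, Rgs5, Nes and Fabp4). Des and Rgs5 belong to the contractile and pericyte lists as well, and Nes stood at 81.5 and 113 against 3.23 and 3.45.

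**Figure D2:**
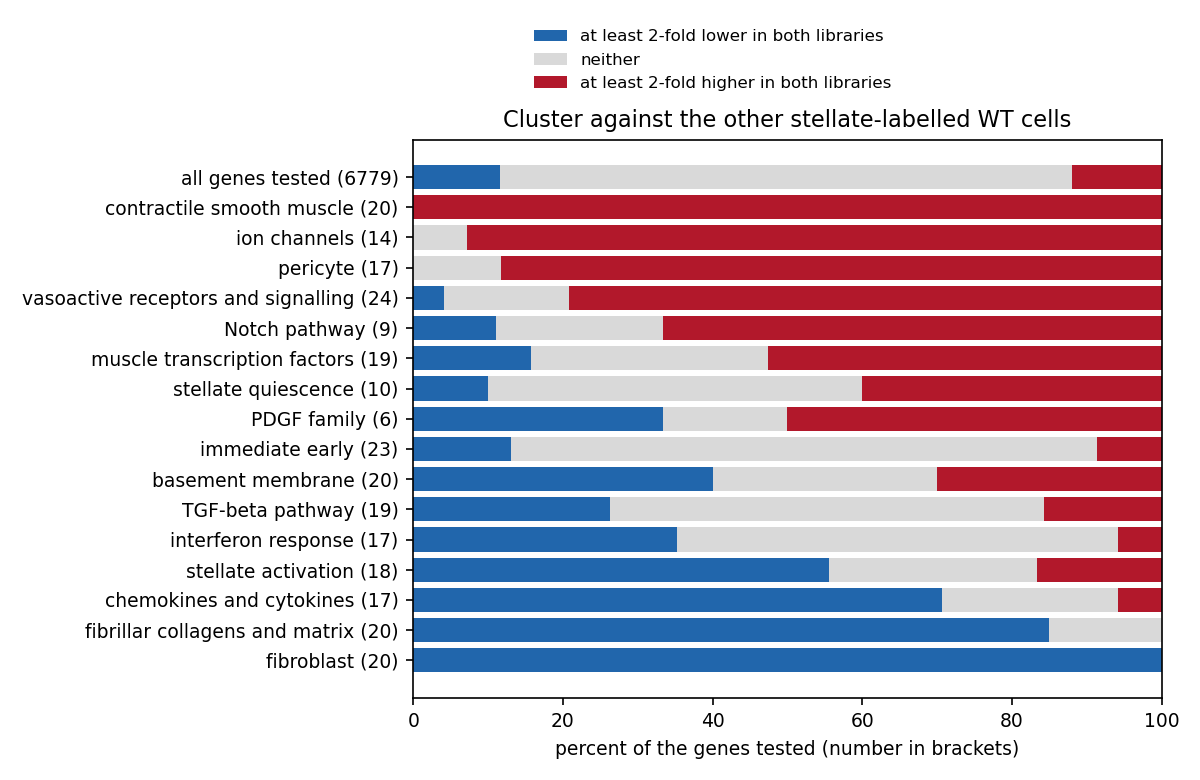
Each bar gives the percent of the tested genes of a list (number in brackets) that were at least 2-fold lower (blue), neither (grey) or at least 2-fold higher (red) in the cluster than in the other stellate-labelled WT cells, in both libraries. The contractile list is wholly red, the fibroblast list wholly blue, and the bar of all 6779 genes shows the background of 11.9% higher and 11.6% lower.

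The Rgs5-Myh11 cluster carried the receptors and second-messenger genes through which vessel tone is set. Of 24 tested vasoactive genes 19 were higher and 1 was lower, with a median log2 ratio of 2.95. Among the higher genes Rgs4 and Rgs5 also stand on the pericyte list. Both endothelin receptors were higher: Ednra stood at 99.4 and 129 CPM against 12.1 and 6.90, and Ednrb at 601 and 713 against 1.01 and 3.80. Gucy1a1 and Gucy1b1, the subunits of the nitric oxide receptor guanylate cyclase, stood at 543 and 996 and at 482 and 598, against 12.1 and 17.4 and against 32.6 and 25.4. The angiotensin receptor gene Agtr1a stood at 143 and 71.3 against 21.0 and 15.6. The adrenergic receptor gene Adra2a stood at 132 and 78.2 against 0.404 and 0.805. The ATP-gated channel P2rx1 stood at 262 and 287 against 3.84 and 1.96. The lower gene was the prostaglandin receptor Ptger4, with 0 and 1 UMIs in the cluster against 33.6 and 49.0 CPM in the reference cells.

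Of 14 tested ion channel genes 13 were higher and none was lower, with a median of 4.54. Among the higher genes Kcnj8 and Abcc9 were already counted on the pericyte list. Kcnmb1, the smooth muscle subunit of the large-conductance calcium-activated potassium channel, stood at 96.8 and 98.9 CPM with no UMI in the reference cells. Trpc6, a cation channel, stood at 86.6 and 75.9, also with no UMI in the reference. Kcna5, a voltage-gated potassium channel, stood at 138 and 103 against 0.202 and 0.345. Cacna1c, the pore of the L-type calcium channel, stood at 61.2 and 52.9 against 2.22 and 2.53. Each of these channels was thus at a low but well separated level.

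Regulators of smooth muscle and mural identity were mostly higher. Of 19 tested transcription factor genes 10 were higher and 3 were lower, with a median of 1.28. Among the higher genes Myocd also stands on the contractile list and Heyl on the Notch list. Myocd, which encodes myocardin, stood at 71.3 and 41.4 CPM and had no UMI in the reference cells. Mef2c stood at 489 and 717 against 41.9 and 27.6, and Foxs1 at 283 and 370 against 56.8 and 46.3. Tcf21, a transcription factor of mesenchymal and stellate cells, was lower at 33.1 and 16.1 against 219 and 170, together with Gata6 and Meox1. Srf itself stood at 2.55 and 9.20 CPM in the cluster and did not reach the minimum level.

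In the Notch pathway, through which endothelial cells instruct mural cells, 6 of 9 tested genes were higher and 1 was lower, with a median of 2.58. The receptor Notch3, also on the pericyte list, stood at 499 and 400 against 22.2 and 8.17. The ligand Jag1 stood at 229 and 143 against 26.9 and 13.9. The target genes Hey2, Heyl and Nrarp were higher, with Heyl at 178 and 129 against 30.7 and 20.9. The DNA-binding partner Rbpj was lower, at 25.5 and 20.7 against 51.8 and 49.0. In the PDGF family the ligand Pdgfa stood at 275 and 453 against 14.8 and 15.0, so that the cluster was high in Pdgfrb and Pdgfa and low in Pdgfra.

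Basement membrane genes were found on both sides. Of 20 tested genes 6 were higher and 8 were lower (median −0.71). The higher genes included the laminin chain Lama5 (63.7 and 36.8 CPM against 0.202 and 0.230) and the integrin subunits Itga1 (754 and 586 against 37.4 and 27.4) and Itga7 (143 and 120 against 2.43 and 2.19). The lower genes were the laminin chains Lama2, Lama4, Lamb1, Lamc1 and Lamc3, the nidogens Nid1 and Nid2 and perlecan (Hspg2). The collagen IV genes Col4a1 and Col4a2 were neither, with Col4a1 at 622 and 506 against 1081 and 887.

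Of the remaining lists the chemokines and cytokines were mostly lower, with 12 of 17 lower, 1 higher (Il34) and a median of −1.50. Ccl2, a monocyte attractant, stood at 140 and 161 against 644 and 982. In the transforming growth factor beta pathway 3 of 19 genes were higher (Tgfb3, Id1 and Id2) and 5 were lower, with Id1 at 550 and 602 against 54.0 and 56.8. Of 17 interferon response genes 1 was higher (Isg15, at 250 and 225 against 111 and 99.3) and 6 were lower. Of 23 immediate early genes 2 were higher (Atf3 and Hspb1) and 3 were lower, and Fos stood at 7952 and 7402 against 7317 and 6132. Of 4 tested cell cycle genes 1 was higher (Stmn1), and Mki67 had no UMI in the cluster. The lower genes chosen by the size of the ratio were Cd55, Svep1, Dpp4, Fndc1, Cxcl14, Qpct, Clec3b, Ace, Apod and Mfap4. Of these all but Clec3b and Cxcl14 rested on 1 to 5 UMIs in the cluster per library, and Cd55, which shields cells from complement, stood at 183 and 223 CPM in the reference cells.

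Markers of other cell types were detected to unequal extents. Of 18 immune markers 13 and 12 were at 0 in the cluster, and their summed level was 20.4 and 34.5 CPM against 29.5 and 83.5 in the reference cells. Ptprc and Cd68 together gave 2 and 3 UMIs. The 11 endothelial markers other than Esam summed to 347 and 110 against 163 and 216, and 1 and 2 of them were at 0, Cldn5 in both libraries. Esam, which mural cells also express, stood at 461 and 501 against 4.85 and 5.98. The 20 acinar markers summed to 1485 and 1062 against 875 and 691, and 89 and 92 member cells carried UMIs of at least 2 of them. No doublet caller was run. Leaving out the 6 and 8 member cells with UMIs of 2 or more endothelial or immune markers kept the direction of every higher or lower gene of the lists.

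The 2 libraries of the Rgs5-Myh11 cluster were not alike in every gene. Of 3059 genes with a mean of at least 50 CPM in the cluster, 261 were at least 2-fold apart with 95% Poisson intervals that did not overlap. Of these 172 (5.62%) were higher in WT 2 and 89 (2.91%) in WT 1, and 111 differed at least 2-fold in the same direction in the other stellate-labelled cells. With 1 mouse per library these differences have no replicate check. Hspb1, a small heat shock protein, stood at 56.1 CPM in WT 1 and 1980 in WT 2, and Jun at 1119 and 5701. Both differences were shared by the other stellate-labelled cells. The log2 ratio of WT 2 to WT 1 was 5.14 in the cluster and 5.34 in those cells for Hspb1, and 2.35 and 2.01 for Jun. The contractile genes Cnn1 and Actg2 were higher in WT 1, at 604 against 228 and at 617 against 225. Ductal and islet markers also differed, and the origin of their transcripts was not tested. The 15 ductal markers summed to 1345 CPM in WT 1 and 71.3 in WT 2, with Krt18 at 497 and 23. The 15 islet markers summed to 171 in WT 1 and 3523 in WT 2, with the hormone genes Sst at 7.64 and 1214 and Ppy at 0 and 860. In the other stellate-labelled cells the libraries were closer, with 194 and 102 CPM for the ductal markers and 138 and 169 for the islet markers. Cells of the cluster with UMIs of at least 2 ductal markers numbered 6 and 5, and of at least 2 islet markers 9 and 16. The islet genes Sst, Pyy and Chga met the 2-fold rule against the reference cells.

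Cells of the cluster differed in their pericyte and contractile transcripts. For a description, the UMIs of each cell were summed over 6 pericyte genes (Kcnj8, Abcc9, Vtn, Colec11, Art3 and Steap4) and 6 contractile genes (Cnn1, Actg2, Pln, Mustn1, Pcp4l1 and Sncg), sets that were chosen after their values were seen. A cell was placed on a side when it had at least 3 UMIs of that set and at least 3 times as many as of the other. On the pericyte side lay 45 cells of WT 1 (39.5%) and 64 of WT 2 (39.8%), and on the contractile side 45 (39.5%) and 69 (42.9%). The other 24 and 28 cells lay between, of which 13 in each library had under 3 UMIs of both sets, while 9 and 14 had at least 3 of each. The sides are ranges of 2 summed counts, and whether they are separate types was not tested. Pericyte-side cells were shallower, with a median of 2040 and 1350 UMIs against 5044 and 3760.

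**Figure D3:**
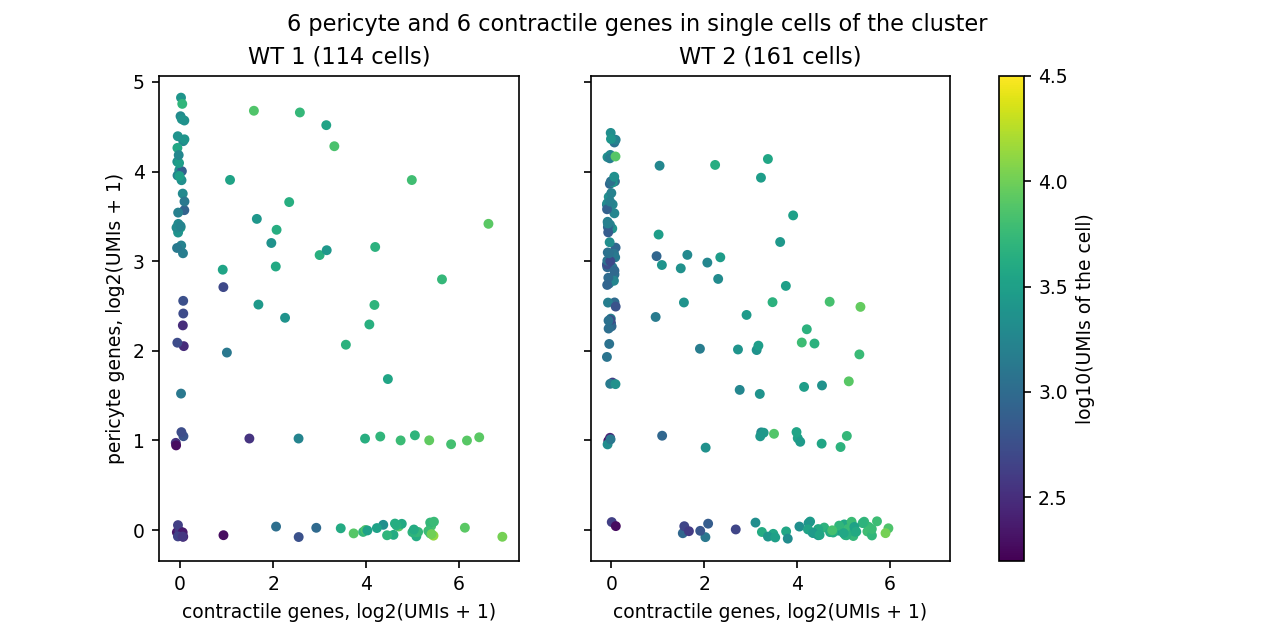
Each point is a cell of the cluster in WT 1 (left, 114 cells) or WT 2 (right, 161 cells), at log2(UMIs + 1) of 6 contractile genes (horizontal) and of 6 pericyte genes (vertical), jittered slightly, with its total UMIs as colour on a log10 scale. Most cells lie along the axes, high in 1 set and near 0 in the other, and the cells along the contractile axis have more UMIs in all.

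Genes outside the sets also differed between the sides. Of 988 genes with a mean of at least 200 CPM on a side, 141 (14.3%) were at least 2-fold higher on the pericyte side in both libraries and 116 (11.7%) on the contractile side. Of these 135 and 110 had not been used for the split. Rgs5, Pdgfrb, Myh11, Acta2 and Tagln stand on the lists from which the sets were taken. Their sides are therefore a description and no independent support for the split. Rgs5 stood at 11269 and 6330 CPM on the pericyte side against 1672 and 1519 on the contractile side, and Pdgfrb at 871 and 805 against 119 and 160. Both were thus present on both sides at unequal levels. Ednrb stood at 1878 and 2355 against 135 and 156, the eosinophil attractant Ccl11 at 3385 and 2385 against 77.7 and 74.5, and Ifitm1, an interferon-induced membrane protein, at 3453 and 3001 against 102 and 142. The pericyte side was also higher in Agtr1a, Adra2a, Cd36, Rgs16, Postn and Col3a1, with Col3a1 at 1203 and 1103 against 298 and 206.

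The contractile side was higher in Myh11, Acta2 and Tagln, genes of the contractile list that were chosen after their values were seen. Myh11 stood at 4382 and 3510 CPM against 411 and 238 on the pericyte side, Acta2 at 28516 and 23734 against 3003 and 1222, and Tagln at 20590 and 19397 against 3610 and 1202. Acta2 on the pericyte side was still far above the 58.4 and 28.9 of the other stellate-labelled cells. Id1 stood at 785 and 774 against 78.3 and 99.4, and Dcn at 1905 and 1842 against 479 and 507. Notch3, Mcam, Cspg4 and Col1a1 did not meet the 2-fold rule on either side, with Notch3 at 704 and 427 on the pericyte side and 417 and 351 on the contractile side.

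To follow these cells into the treated mice a counterpart had to be found, since no cluster of i4F or caerulein mice was built together with the WT cells. Stellate-labelled cells of the treated mice were first taken when their counts were likelier under the profile of the Rgs5-Myh11 cluster than under that of the other WT stellate cells, over 522 genes that were at least 4-fold apart. In WT the rule returned 274 of the 275 members, which the use of the same cells for the profiles fixes in large part. In i4F it took 291, 23 and 17 cells and in caerulein 83 and 23. These cells did not carry the profile: Rgs5 stood between 9.88 and 562 CPM in the 5 treated mice, and Myh11 at no more than 56.2. Col1a1 instead stood between 4085 and 5432 and Timp1 between 4778 and 10798, with Acta2 between 7222 and 9384. They were thus stellate-labelled cells with high Acta2 and high collagen. Their share of all cells was 1.16% ± 1.57 (SD, n = 3) in i4F and 0.438% ± 0.157 (SD, n = 2) in caerulein against 2.59% ± 0.0633 (SD, n = 2) in WT, with an exact two-sided permutation p of 0.6 and 0.333. Here 0.2 and 0.333 are the smallest values possible. The share of i4F 1 was 2.97%, above both WT mice. With cells taken instead by their marker lists the i4F mean was 2.58% against 2.59% in WT (exact permutation p = 1), with i4F 1 at 6.34%. By edgeR's quasi-likelihood test on the summed counts of mice with at least 20 such cells, which drops i4F 3, 2407 of 6284 genes (38.3%) differed from the WT cluster in i4F and 2284 (36.3%) in caerulein at an adjusted p under 0.05. The counts fell to 884 without i4F 1 and to 961 without caerulein 1, fits in which the treated group held a lone mouse that was assumed to vary like the other groups. Since these cells differed from the WT cluster in the genes that mark it, no gene is read from the counts.

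The clusters that the authors named smooth muscle in the treated mice were then taken as the counterpart, a choice made after marker levels had been seen. They held 71, 70 and 88 cells of i4F 1, i4F 2 and i4F 3, and 114 and 54 cells of caerulein 1 and caerulein 2. Across the 6779 genes their log levels correlated with those of the WT cluster at Pearson r of 0.689 to 0.845, against 0.452 to 0.610 for the other stellate-labelled clusters of all 7 mice. Genes are not independent, so these values are a description. Rgs5 stood at 1777, 1996 and 2762 CPM in i4F and at 2771 and 4298 in caerulein. Myh11 stood at 1431, 864 and 2435 in i4F and at 1892 and 994 in caerulein. Each of these levels was far above the stellate-labelled clusters of the same mouse.

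**Figure D4:**
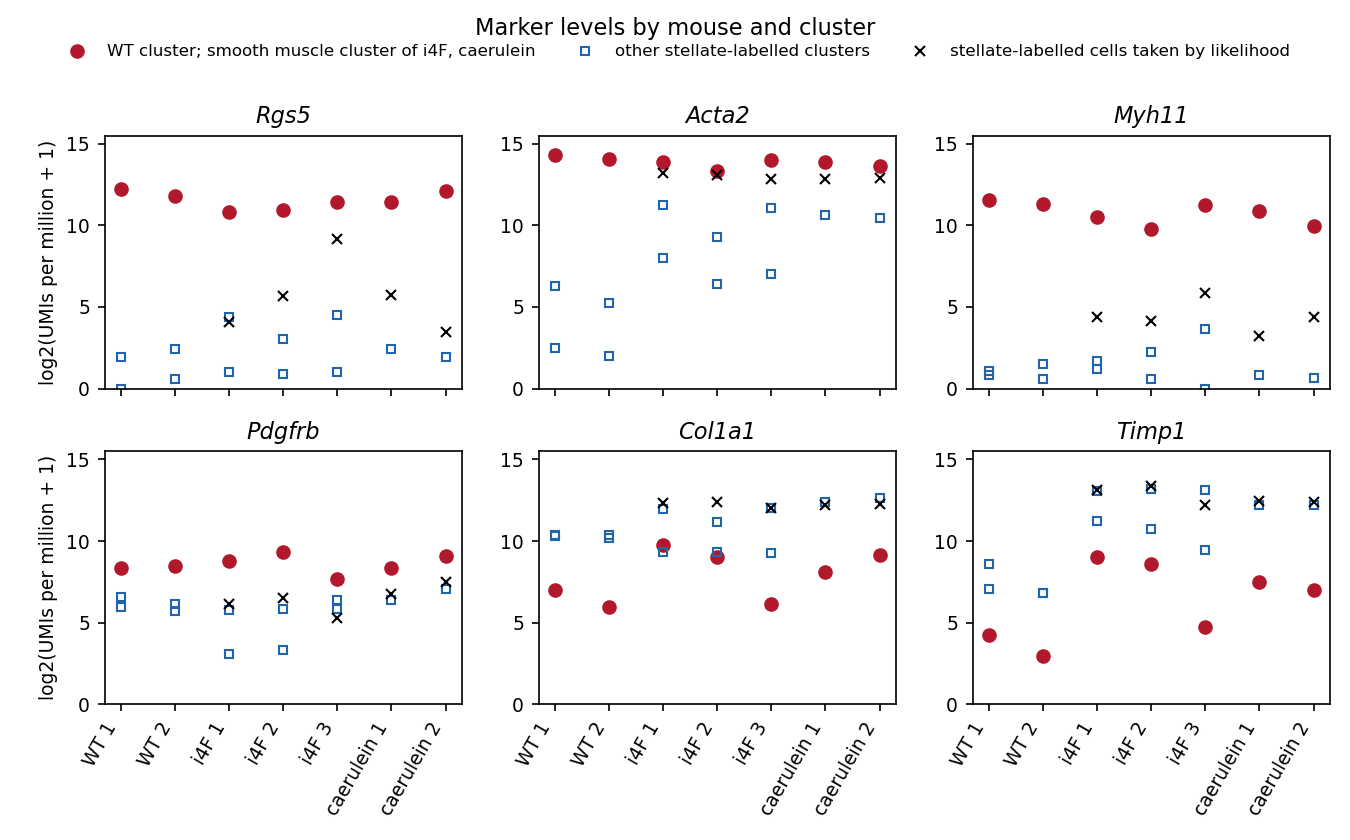
The panels give log2(CPM + 1) of Rgs5, Acta2, Myh11, Pdgfrb, Col1a1 and Timp1 in each of the 7 mice, for the WT cluster or the smooth muscle cluster (red circles), the other stellate-labelled clusters (blue squares) and, in treated mice, the stellate-labelled cells taken by likelihood (crosses). For Rgs5 and Myh11 the red circles stand above all other points of their mouse, while for Timp1 they stand below them, and the crosses lie near or above the squares for Col1a1 and Timp1.

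Taken by cluster name, the share of these cells was lower in each treated mouse than in either WT mouse. Of all cells they made up 2.63% and 2.55% in WT, 0.724%, 0.852% and 1.16% in i4F, and 0.753% and 0.767% in caerulein. The means were 2.59% ± 0.0633 (SD, n = 2), 0.910% ± 0.222 (SD, n = 3) and 0.760% ± 0.00996 (SD, n = 2). The exact two-sided permutation p was 0.2 for i4F and 0.333 for caerulein, in both cases the smallest that this number of mice allows, so that neither can pass a threshold of 0.05. Immune cells are part of that denominator. Of non-immune cells the shares were 2.83% ± 0.0760 in WT (n = 2), 1.58% ± 0.296 in i4F (n = 3) and 1.58% ± 0.232 in caerulein (n = 2), and the groups still did not overlap. Of stellate-labelled cells plus this cluster the means were 8.22%, 3.52% and 2.79%, and WT and i4F overlapped (exact permutation p = 0.4). When the stellate-labelled cells taken by likelihood were added to the smooth muscle clusters, i4F 1 lay above both WT mice at 3.68%, and the difference between i4F and WT was −0.539 points (exact permutation p = 0.6). Library names form 2 series, and within each the order was the same: 2.63% in WT 1 against 0.724 to 1.16% in the i4F mice, and 2.55% in WT 2 against 0.753 and 0.767% in caerulein. The WT cells were named in a separate clustering, so the drawing of the cluster border and the condition cannot be told apart.

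**Figure D5:**
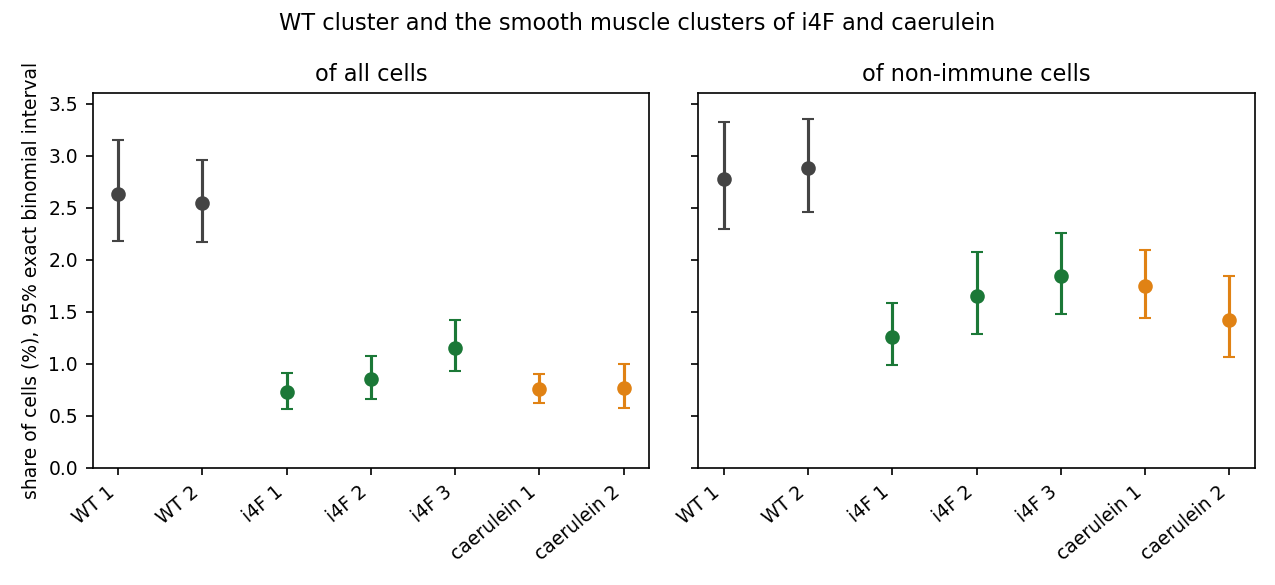
The vertical axis gives the share of all cells (left) or of non-immune cells (right) that fell in the WT cluster or in the smooth muscle cluster of i4F and caerulein, for each of the 7 mice, with the 95% exact binomial interval as bars. Both WT mice stand above all 5 treated mice in either panel, at 2.55 to 2.63% against 0.724 to 1.16% of all cells.

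Hardly any gene passed the test between the treated mice and WT, and no listed pericyte, contractile or activation gene did. By edgeR's quasi-likelihood test over 3583 genes no gene of the pericyte list (0 of 16 tested), the contractile list (0 of 19), the stellate activation list (0 of 17) or the interferon list (0 of 10) passed an adjusted p of 0.05 in i4F or in caerulein. Over all 3583 genes 1 passed in i4F (0.0279%) and 23 in caerulein (0.642%). Counts of 0 on lists of this size are near those shares and are no result about the lists. Both contrasts used the same 2 WT mice. Median log2 fold changes in i4F and caerulein were −0.68 and −0.44 for the pericyte list, −0.20 and −0.42 for the contractile list and 0.72 and 0.74 for the activation list, beside 0.028 and −6e-05 over all genes. For the interferon list they were 1.34 and 0.46. Rgs5 gave −0.88 ± 0.30 (SE; adjusted p = 0.246) in i4F and −0.26 ± 0.33 (adjusted p = 0.798) in caerulein. All 3 i4F mice lay below both WT mice for Rgs5, a description only, as the share of all genes without overlap is not given. Each condition was clustered on its own, so cluster border and condition cannot be told apart in gene levels either. Rgs5 was higher on the pericyte side of the WT cluster, and the part of the balance of sides in its level was not tested. Acta2 stood at 14831, 10335 and 16231 CPM in i4F and 14749 and 12429 in caerulein, with −0.35 ± 0.26 (adjusted p = 0.577) and −0.43 ± 0.29 (adjusted p = 0.586). Myh11 gave −0.73 ± 0.43 (adjusted p = 0.480) and −0.89 ± 0.49 (adjusted p = 0.525). With the replicate number as a block it passed in i4F (log2 −1.27, edgeR adjusted p = 0.045). Pdgfrb gave 0.38 ± 0.42 (adjusted p = 0.717) in i4F, a sign that did not hold under every alternative.

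Timp1, Tnc and Col1a1 spread widely between the i4F mice. Of the list of fibrillar collagens and matrix 0 of 18 tested genes passed in either treatment, with median log2 fold changes of 0.61 in i4F and 0.67 in caerulein. That count too is near the shares over all genes, 0.0279% in i4F and 0.642% in caerulein. Timp1 stood at 17.8 and 6.90 CPM in WT, at 524, 392 and 25.2 in i4F and at 182 and 128 in caerulein, all 5 treated mice above both WT mice. Its log2 fold change was 4.68 ± 1.01 (adjusted p = 0.133) in i4F and 3.70 ± 1.09 (adjusted p = 0.266) in caerulein, so it did not pass by edgeR's test, although it passed in i4F by DESeq2 (adjusted p = 9.47e-05) and without i4F 3 (edgeR adjusted p = 0.0026). Tnc, the matrix protein tenascin C, stood at 10.2 and 9.20 in WT, at 130, 354 and 12.6 in i4F and at 81.3 and 80.2 in caerulein (log2 4.07 ± 0.99, adjusted p = 0.135, in i4F). Col1a1 stood at 848, 522 and 69.2 in i4F and 279 and 577 in caerulein, with 2.40 ± 0.79 (adjusted p = 0.244) and 2.11 ± 0.85 (adjusted p = 0.396). The library of i4F 3 stood nearest to WT in each of these 3 genes. In the stellate-labelled clusters of the treated mice Timp1 stood far higher, and the part of RNA from those cells in the values was not tested. Isg15, an interferon-induced gene, stood at 540, 827 and 396 in i4F against 250 and 225 in WT (log2 1.36 ± 0.34, adjusted p = 0.144), with no overlap. Ednrb stood at 1329, 2574 and 931 in i4F against 601 and 713, likewise with no overlap and without passing (log2 1.35 ± 0.42, adjusted p = 0.229). In WT this gene was far higher on the pericyte side, and the part of the balance of sides in its level was not tested. As Timp1, Tnc, Isg15 and Ednrb were chosen after their values were seen, the lack of overlap is a description only.

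Few genes passed. Averaged over the treated and WT mice, each of them had a lower level in the cluster than in the other cells. In i4F 1 of 3583 genes was higher (0.0279%) and 0 lower (0%) by edgeR's quasi-likelihood test, while 495 genes had an unadjusted p under 0.05 and DESeq2 called 52. The count was 0 without i4F 1, 1 without i4F 2, 255 without i4F 3 and 6 without either WT mouse, in which case the lone WT mouse was assumed to vary like the other groups. The gene was Reg3g, a secreted lectin of inflamed acinar tissue, at 0 and 2.30 CPM in WT and 254, 155 and 258 in i4F (log2 7.06 ± 0.83, a value that depends on the prior count; adjusted p = 0.022). In the other cells of the same i4F mice it stood at 433 to 920. None of the 8 tested immune markers passed in i4F, but all were above WT. Their log2 fold changes ran from 1.88 to 6.30, with a median of 4.65, and the part of other cells in this was not tested. In caerulein 23 genes (0.642%) were higher and 0 lower (0%) by edgeR, while 414 had an unadjusted p under 0.05 and DESeq2 called 31. The count was 0 without caerulein 1, 39 without caerulein 2, 15 without WT 1 and 21 without WT 2. In each of these fits the lone caerulein or WT mouse was assumed to vary like the other groups. They included 7 of 8 tested immune markers. Lyz2, the macrophage lysozyme, stood at 2.55 and 6.90 in WT and 2906 and 561 in caerulein (log2 8.41 ± 1.38, edgeR adjusted p = 0.024). Tyrobp, Ctss and C1qc, genes of myeloid cells, and the predicted gene Gm2663 had no UMI in the WT cluster, and Tyrobp stood at 677 and 225 in caerulein. After leaving out the cells with UMIs of 2 or more endothelial or immune markers, which left 82 of 114 cells of caerulein 1 and 51 of 54 of caerulein 2, no gene passed by edgeR. That filter removes cells by 7 of the called genes themselves, so the loss of those calls was fixed by it. The predicted gene Gm2663, which is not a marker in the filter, kept a log2 fold change of 8.64, again dependent on the prior count (edgeR adjusted p = 0.135). The 23 also included Ube2c of the cell cycle list and, from the list of stellate quiescence, Fabp5. Fabp5, a fatty acid binding protein, stood at 43.3 and 89.7 in WT against 526 and 449 in caerulein (log2 2.88 ± 0.45, edgeR adjusted p = 0.018). It is not particular to stellate cells here: of the 15 WT clusters this cluster had rank 9 for Fabp5. Endothelial 2 was highest with a mean of 1183 CPM.

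The balance of the pericyte and contractile sides also varied by mouse. After thinning to 1000 UMIs the pericyte side made up 49.3% and 42.1% of the cells placed on a side in WT, 13.8%, 52.6% and 31.7% in i4F and 24.6% and 27.3% in caerulein. Over all cells placed on a side, without thinning, the shares were 50% and 48.1% in WT, 29.5%, 60% and 44.6% in i4F and 38.6% and 40% in caerulein. In both forms the i4F mice overlapped with WT, and the caerulein mice lay below both WT mice. In i4F 2, 38 of 57 thinned cells lay between the sides, and in i4F 1 and caerulein 2 only 4 and 3 thinned cells lay on the pericyte side, so the thinned shares of these mice have wide counting intervals (3.89 to 31.7% in i4F 1, 28.9 to 75.6% in i4F 2 and 6.02 to 61.0% in caerulein 2).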

How the data were processed

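Droplet 3′ single-cell RNA-seq libraries of pancreas from 7 mice were analysed from the deposited tables. Per the labels and methods, the authors made the UMI counts with Cell Ranger against mm10, removed ambient RNA with SoupX, filtered cells and clustered each condition separately in Seurat with manual naming. The deposited counts are whole numbers per gene and cell. Whether they precede or follow the ambient correction, and whether doublets had been removed, is not given in the sources used here. The mitochondrial percent of each cell was taken from the authors' cell tables. Sample columns not used numbered 0.

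Counts were summed per library over the 275 labelled WT cells and over the other 3370 stellate-labelled WT cells. Between these classes no test was made. Intervals are exact (binomial or Poisson, 95%), and floors are 3 UMIs per library. They cover counting error only. Between conditions, counts summed per mouse were tested with edgeR 4.0.16 (R 4.3.3; TMM, filterByExpr, quasi-likelihood F test, 3 groups in 1 fit, two-sided, Benjamini-Hochberg adjustment), with DESeq2 1.42.0 as an alternative. Shares were compared by exact permutation (scipy 1.17.1, Python 3.11.15). The gene ratios and the edgeR fit were tested on simulated data. Named genes were those of 26 lists and, in WT, the 10 or fewer genes of each direction that ranked highest by their ratio in the weaker library (at least 4-fold, at least 50 CPM, counts scaled to 1000000 UMIs). Between conditions they were at most 5 genes of each direction that passed, averaged 4 or more in log2 CPM and showed no overlap of mice. Other genes were chosen after their values were seen: the genes of the promoter windows, of the 2 sides of the cluster, of the difference between libraries, and Timp1, Tnc, Isg15, Ednrb and Fabp5 between conditions. The members and lists were chosen with earlier results of these data known. The likelihood assignment had been planned. The comparison with the smooth muscle clusters was added after its markers had been seen.

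Mice share replicate numbers, but each is a separate animal, and same-numbered mice did not deviate together (r of −0.247 between WT and caerulein and −0.00016 and −0.106 between WT and i4F), so no pairing was assumed. Library names form 2 series, 1 with WT 1 and the i4F mice and 1 with WT 2 and the caerulein mice. Results of a few genes are not reported here. Gene positions are from the GENCODE annotation of GRCm38 and promoters from RefSeq (GRCm38.p6).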

Additional observations from a re-analysis of the deposited data

How the results depend on the processing

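Against the other stellate-labelled WT cells, all higher or lower genes of the lists kept their direction under every alternative run, and 136 of 1480 values moved by more than the spread between the libraries. The alternatives of fold and minimum level left each ratio as it was. With either WT library alone the direction was fixed by the 2-fold rule, and a value could not move beyond that spread. Only equal weighting of cells, the limit of 500 genes and the removal of cells with endothelial or immune markers could therefore move a value. The 810 higher and 787 lower genes became 427 and 316 at 4-fold, the higher genes 1336 with no minimum level, and 1031 to 1125 and 1076 to 1147 with either WT library alone. The mean WT share was 3.14% among cells with at least 500 genes and 8.22% of stellate-labelled cells. For the cells taken by likelihood, the counts of called genes were 1182 (i4F) and 1131 (caerulein) by DESeq2, 884 to 2549 and 961 to 2408 when a mouse was left out, and 2074 and 1963 with the replicate number as a block. In WT and caerulein alone the block gave 1345 and crossed numbers 2430. The difference in shares ranged from −2.34 to −0.967 points (i4F) and −2.26 to −2.04 (caerulein) when a mouse was left out.

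For the smooth muscle clusters, where all alternatives were chosen after seeing the data, the 1 gene called in i4F became 52 by DESeq2, 192 with no filter, 158 with the replicate block, 4 with the library series as a term, 0 among cells with at least 500 genes, 3 with stellate-labelled cells added by assignment and 2 without the assignment genes. Leaving out a mouse gave 0 to 255 (0 without i4F 1, 255 without i4F 3). The 23 genes called in caerulein became 200 with no filter, 41 with the replicate block, 7 with the library series, 0 without cells carrying endothelial or immune markers and 11 with added cells. In the 2 groups alone the block gave 5 and crossed numbers 265. Leaving out a mouse gave 0 to 39 (0 without caerulein 1, 39 without caerulein 2). Their shares differed from WT by −1.80 to −1.59 points (i4F) and −1.87 to −1.78 (caerulein) when a mouse was left out, by −0.539 and −1.39 with added cells, −1.25 and −1.25 of non-immune cells and −2.03 and −2.47 among cells with at least 500 genes. With the block, Timp1 (adjusted p = 0.0078) and Myh11 (log2 −1.27, adjusted p = 0.045) passed in i4F.

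Signs reversed, in no case past the threshold in the fit as reported, for Pdgfrb in i4F (−0.60 with added cells, −0.020 to 0.66 when a mouse was left out) and caerulein (−0.46 with added cells, −0.047 among cells with at least 500 genes). They also reversed for Tagln (−0.37 to 0.048 in i4F and −0.75 to 0.027 in caerulein when a mouse was left out), for Ednrb in caerulein (−1.27 with added cells, −0.11 to 0.56 when a mouse was left out, −0.034 at 500 genes) and for Isg15 in caerulein (−0.78 with added cells). The cause of these shifts was not tested. The comparison rested on 2 or 3 mice per group and 54 to 161 cells per mouse.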
